A study of Mus musculus with 6 samples.

Results

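The genes described here encode the proteasome, the protease complex that degrades ubiquitin-tagged proteins, together with the factors that assemble, activate or inhibit it. They were chosen by gene symbol, as the genes named Psma, Psmb, Psmc, Psmd, Psme, Psmf or Psmg followed by a number, without the 3 inducible catalytic subunits Psmb8, Psmb9 and Psmb10, which appear only for comparison. The rule found 48 of the 15168 genes listed. They comprised 8 alpha and 7 beta subunits of the 20S core, 6 ATPases and 3 other subunits of the 19S base, 8 subunits of the 19S lid, 7 assembly factors and 6 activators or inhibitors. The other members were the pseudogenes Psma5-ps and Psmb6-ps2, and Psmc3ip, a recombination factor that matched by name and is not a proteasome subunit. Psmb6-ps2 was too low to test, which left 47 members.

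The transcripts were counted in macrophages sorted 3 days after full-thickness wounding of the back skin of female C57BL/6J wild-type mice. Of these samples, 3 came from young mice (12 weeks) and 3 from aged mice (24 months), lettered A, B and C in each age, and the question is which transcript levels differ between the ages. The cells were sorted as F4/80+ CD64+, and the study's methods add CD45+ CD11b+. The methods also state that Ly6G+ cells were not gated out, so that some neutrophils may be among the sorted cells. The samples hold whatever else passes that gate, and the labels do not say whether each came from a separate mouse or from pooled mice, so that p-values measure the spread between these samples. In such bulk RNA, fewer cells of a type and less RNA per cell cannot be told apart.

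The 20S core is a barrel of 2 outer alpha rings, which gate the entrance, and 2 inner beta rings, in which Psmb5, Psmb6 and Psmb7 encode the subunits that cut peptide bonds. The 19S particle caps the barrel. Its base carries a ring of ATPases that unfold the substrate, and its lid removes ubiquitin. The assembly chaperones of the Psmg genes build the alpha ring, and PA28, a cap made of the products of Psme1 and Psme2, opens the barrel without ubiquitin. In cells exposed to interferon, macrophages among them, Psmb8, Psmb9 and Psmb10 replace the constitutive catalytic subunits to form the immunoproteasome, which shapes peptides for antigen presentation.

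Reads of several members could not be assigned to 1 gene with certainty, and the sequences that bear on this come first. Psme2 lies at chr14:55587441-55591114 on the minus strand and Psme2b at chr11:48945354-48946191 on the minus strand of mm10. Psme2b is a near-identical copy, and the coding sequences differed at 5 of 717 bases compared. The stretch of coding bases 394 to 543 (GENCODE transcripts of mouse) held 3 of these 5 differences, which are in capitals.
Psme2: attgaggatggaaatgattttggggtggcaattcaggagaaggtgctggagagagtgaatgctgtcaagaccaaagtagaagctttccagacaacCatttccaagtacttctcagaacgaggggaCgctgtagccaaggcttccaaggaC
Psme2b: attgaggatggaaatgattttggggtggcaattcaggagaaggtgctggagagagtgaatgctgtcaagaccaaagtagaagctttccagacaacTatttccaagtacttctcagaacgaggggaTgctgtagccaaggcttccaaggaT

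Psma3, an alpha ring subunit, had a processed pseudogene, Gm13835, with which it shared 662 of 662 coding bases compared. A stretch of 90 of these bases reads the same in both.
Psma3 and Gm13835: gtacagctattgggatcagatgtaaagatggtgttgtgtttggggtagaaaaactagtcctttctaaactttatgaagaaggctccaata

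Gm13835 carried 25274 counts over the 6 samples and Psma3 1334, so that Gm13835 held 95.0% of their joint counts. Near-identical copies (at least 90% identical over at least 300 bases) were listed elsewhere for 13 members. There were 22 such copies, of which 3 are members themselves, Psma5-ps, Psmb6-ps2 and Psme2b. Copies held 72.1% of the joint counts for Psma5, 74.6% for Psme2 and 53.4% for Psmd11, but 14.3% or less for Psma2, Psma4, Psmb3, Psmb5, Psmb6, Psmc1, Psmd14, Psmd2 and Psme1. The values of Psma3, Psma5, Psmd11, Psme2 and Psme2b alone are therefore uncertain, and values with the copies summed stand beside them below. Spans also overlapped those of other listed genes for 10 members. In 4 of these the other gene held more than 10% as many counts as the member. It lay on the opposite strand for Psma3, Psmb7 (with Nek6) and Psmc3ip (with Mlx), and the use of read strand in counting is not given in the sources used here. For Psmd13 the other gene, Gm15542, lay on the same strand, where strand could not tell them apart. The levels of these 4 are uncertain too.

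No member was called higher in aged wound macrophages and 3 were called lower, the 20S assembly chaperones Psmg1 and Psmg4 and the activator copy Psme2b (edgeR quasi-likelihood test, adjusted p under 0.05 over the 11878 genes tested). The 3 made up 6.38% of the 47 members tested, while 7.97% of all genes tested were called lower and 9.73% were called higher, or 17.7% in either direction. At an unadjusted p under 0.05, 8 members were lower (17.0%, against 16.5% of all genes) and 0 were higher (against 18.1%). DESeq2 called 5 members lower (10.6%, against 8.59% of all genes with an adjusted p) and limma-voom 12 (25.5%, against 14.4%). Neither called a member higher (0 of 47 in both, against 11.7% of all genes in DESeq2 and 16.3% in limma-voom). The share called lower was thus near that of all genes in edgeR and above it in limma-voom.

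The members nevertheless lay mostly on 1 side. The log2 fold change of aged over young was negative in 40 of 47 members (85.1%), against 51.2% of all genes tested. Its median was -0.22 over the members and -0.02 over all genes tested. In 18 members (38.3%) every aged sample was below every young sample, against 19% of all genes, and in 0 members was every aged sample above every young one, against 19.2% of all genes. Members are not independent replicates, so no test of the group was made. Without aged sample B, which stood apart in keratinocyte transcripts as described below, 20 members were wholly lower, against 24.6% of all genes. When library totals alone set the scale, with no TMM factors, the median of all genes moved to -0.20 and that of the members to -0.39, and 34 members were wholly lower (against 28.6% of all genes).

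**Figure D1:**
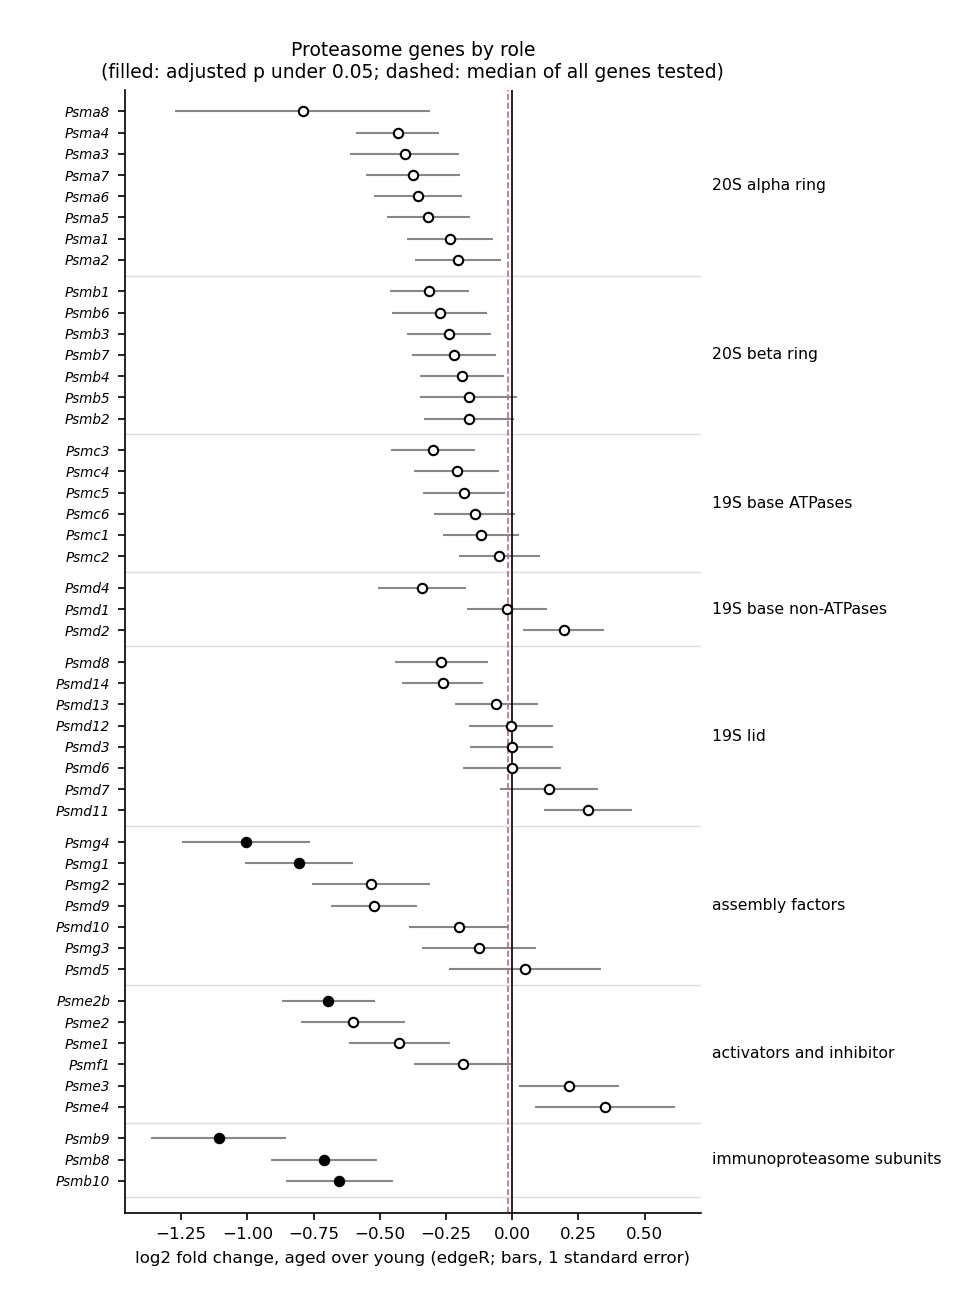
Log2 fold change of aged over young for the tested proteasome genes, grouped by role on the vertical axis, with bars of 1 standard error (n = 3 per age); filled points have an adjusted p under 0.05 and the dashed line is the median of all genes tested. All 15 subunits of the 20S core lie left of 0, the 19S lid is spread on both sides of it, and the filled points are Psmg4, Psmg1, Psme2b and the 3 immunoproteasome subunits.

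All 15 subunits of the 20S core had a negative log2 fold change, and this held in every one of the 14 alternative fits. The median was -0.37 over the 8 alpha subunits and -0.22 over the 7 beta subunits. No single subunit of the core passed the test in the main edgeR fit or DESeq2 (0 of 15 in both, where 7.97% and 8.59% of all genes were called lower). With library totals alone as the scale, edgeR called Psma4, Psma6, Psma7 and Psmb1 lower, where 13.1% of all genes were called lower. Without young sample A, Psma4 passed in edgeR (adjusted p = 0.0473, with 9.29% of all genes called lower). In limma-voom 4 passed (26.7%, against 14.4% of all genes), namely Psma4, Psma6, Psma7 and Psma8, the last on few counts. In edgeR 1 had an unadjusted p under 0.05 (6.67%, against 16.5%). Every aged sample was below every young sample for 5 of 8 alpha (62.5%) and 2 of 7 beta subunits (28.6%), against 19% of all genes.

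Psma4, an alpha ring subunit and the only subunit of the core with an unadjusted p under 0.05, was at 145, 164 and 183 CPM (library-scaled counts) in young samples A, B and C. It was at 122, 118 and 124 CPM in the aged samples A, B and C. The groups did not overlap, and the aged samples lay close together. The log2 fold change was -0.43 (SE 0.16, adjusted p = 0.0794), short of the threshold. Within the alpha ring, the log2 fold change was nearest 0 for Psma2, at -0.21 (SE 0.16, adjusted p = 0.395), with 143 ± 16.9 CPM (SD, n = 3) in the young and 124 ± 10.0 CPM in the aged samples. Psma8, the alpha subunit of the testis proteasome, had the most negative value of the ring, -0.79. It rested on 10 to 47 counts per sample, its groups overlapped and its standard error was 0.48 (adjusted p = 0.267). In limma-voom Psma8 passed, at a log2 fold change of -1.37 (adjusted p = 0.0423).

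The groups overlapped for the 3 constitutive catalytic beta subunits. Psmb5, which carries the chymotrypsin-like site, was at 179, 138 and 201 CPM in the young samples and 171, 152 and 139.7 CPM in the aged samples. Its log2 fold change was -0.16 (SE 0.18, adjusted p = 0.555), and young sample B lay below all 3 aged samples. Psmb6, which carries the caspase-like site, was at 234 ± 31.9 CPM in the young and 194 ± 27.4 CPM in the aged samples (log2 fold change -0.27, SE 0.18, adjusted p = 0.300). Psmb7, which carries the trypsin-like site, was at 101 ± 9.32 and 86.8 ± 8.96 CPM (log2 fold change -0.22, SE 0.16, adjusted p = 0.350). Of the other beta subunits, Psmb1 had the most negative value, -0.31 (SE 0.15, adjusted p = 0.167), with 199 ± 12.0 CPM in the young and 160.0 ± 6.33 CPM in the aged samples. Psmb2 had the value nearest 0, -0.16 (SE 0.17, adjusted p = 0.532).

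Levels were compared between genes per kb of coding sequence. Untranslated bases can also yield counts, so genes with long untranslated parts may be overstated on this scale. In young samples, the 14 core subunits other than Psma8 spanned a 20.5-fold range, from 20.6 for Psma3 to 422 CPM per kb for Psma6. This range narrowed to 3.47-fold when counts of near-identical copies were added, with Psmb7 lowest at 122 CPM per kb. Psma3 was then at 408 ± 55.2 CPM per kb (SD, n = 3), next to Psma6 at 422 ± 51.6, and these neighbours did not differ beyond their spread. Psma5 moved from 47.7 ± 4.32 to 168 ± 18.0 CPM per kb. With copies summed, the log2 fold change was -0.37 for Psma3 (SE 0.17, adjusted p = 0.142) against -0.41 without them, and -0.26 for Psma5 (SE 0.15, adjusted p = 0.262) against -0.32.

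**Figure D2:**
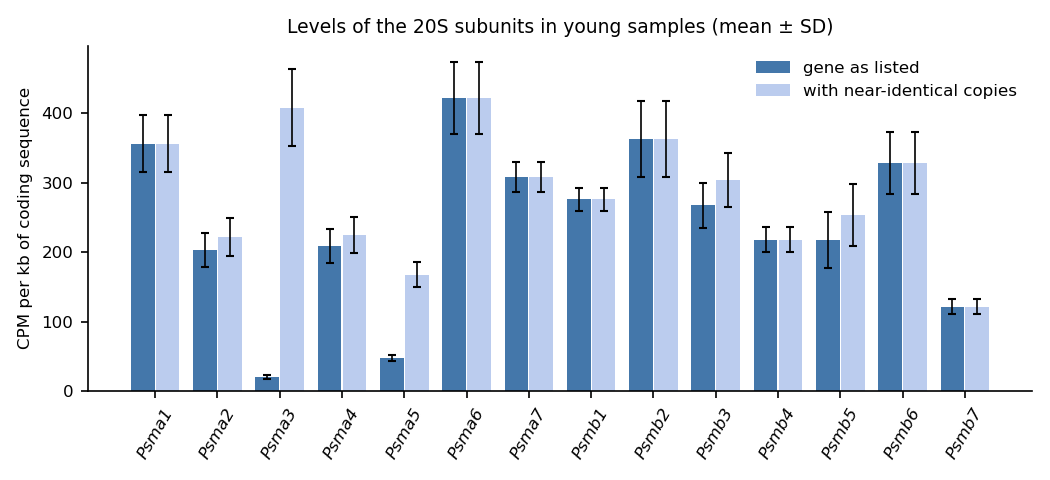
Level of each 20S core subunit in young samples (CPM per kb of coding sequence, mean ± SD, n = 3), for the gene as listed (dark bars) and with counts of its near-identical copies added (light bars). The 2 bars are far apart for Psma3 (20.6 and 408) and Psma5 (47.7 and 168) and close for most other subunits.

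The 19S particle stood nearer to all genes than the core did. The name rule found 17 of its subunits, while Adrm1 and Sem1, which also belong to it, are counted with the partners below. Of the 17, 0 passed the test in edgeR (against 7.97% of all genes called lower) and 0 at an unadjusted p under 0.05 (against 16.5%). In DESeq2 0 passed (against 8.59%) and in limma-voom 1 (5.88%, against 14.4%). A negative log2 fold change was found for 13 (76.5%, against 51.2%), and the median was -0.06. The ATPases of the base, Psmc1 to Psmc6, were all on the negative side, between -0.30 and -0.05. Psmc3 had the most negative value of the ATPases (185 ± 16.0 CPM in the young and 151 ± 13.8 CPM in the aged samples, SE 0.16, adjusted p = 0.208), and its groups did not overlap. Psmc2 had the value nearest 0, with an adjusted p of 0.848.

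The other 3 base subunits did not share a direction. Psmd4, the ubiquitin receptor of the base, was at 148, 194 and 198 CPM in the young samples and 148, 141 and 138 CPM in the aged samples. Young sample A lay just above the highest aged sample, and the log2 fold change was -0.34 (SE 0.17, adjusted p = 0.178). Psmd2, the scaffold to which ubiquitin receptors and ubiquitin-like proteins dock, was at 158 ± 11.3 CPM in the young and 181 ± 13.0 CPM in the aged samples (log2 fold change 0.19, SE 0.15, adjusted p = 0.399). Psmd1, the other large scaffold, was at a log2 fold change of -0.02.

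In the lid the median was -0.0034, with 5 of 8 subunits negative. Psmd14, the deubiquitinase that releases ubiquitin from the substrate, was the only lid subunit with every aged sample below every young one (148 ± 14.5 CPM in the young and 123 ± 4.99 CPM in the aged samples, log2 fold change -0.26, SE 0.15, adjusted p = 0.249). Psmd8 was at -0.27, the most negative value of the lid (SE 0.18, adjusted p = 0.310), and aged samples B and C, at 229.7 and 265 CPM, lay below the others. Psmd11, a lid subunit known to promote proteasome assembly in stem cells, had the most positive value, 0.29 (SE 0.17, adjusted p = 0.251), with 64.8, 53.1 and 61.4 CPM in the young and 76.7, 80.2 and 61.6 CPM in the aged samples. With its copy Gm14048 summed, its value was 0.28 (SE 0.16, adjusted p = 0.235) and every aged sample was above every young one.

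The balance of core to cap can be read within a sample, where the scaling between libraries cancels. The summed CPM of the core over that of the 19S particle was 1.01, 0.962 and 1.08 in young samples A, B and C, and 0.951, 0.855 and 0.918 in aged samples A, B and C. The aged values were below all young ones, though aged sample A was close to young sample B. The means were 1.02 ± 0.0568 and 0.908 ± 0.0490 (SD, n = 3). With copies summed they were 1.17 ± 0.0683 and 1.03 ± 0.0503, and again the groups did not overlap. In the summed levels themselves, the core was at 2445 ± 249.5 CPM in the young and 2027 ± 161 CPM in the aged samples, and the 19S particle at 2399 ± 116 and 2229 ± 93.9 CPM. Neither sum overlapped between the ages as listed. For the 19S particle, though, aged sample A (2323 CPM) was just below young sample A (2329 CPM). With copies summed its groups overlapped, at 2421 CPM in aged sample A and 2404 CPM in young sample B. The ratio of the 19S base to the lid overlapped between the ages (1.15 ± 0.0632 and 1.11 ± 0.0186). That of the alpha to the beta ring overlapped as listed (0.935 ± 0.0496 and 0.874 ± 0.0164) but not with copies summed (1.21 ± 0.0592 and 1.13 ± 0.0200).

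**Figure D3:**
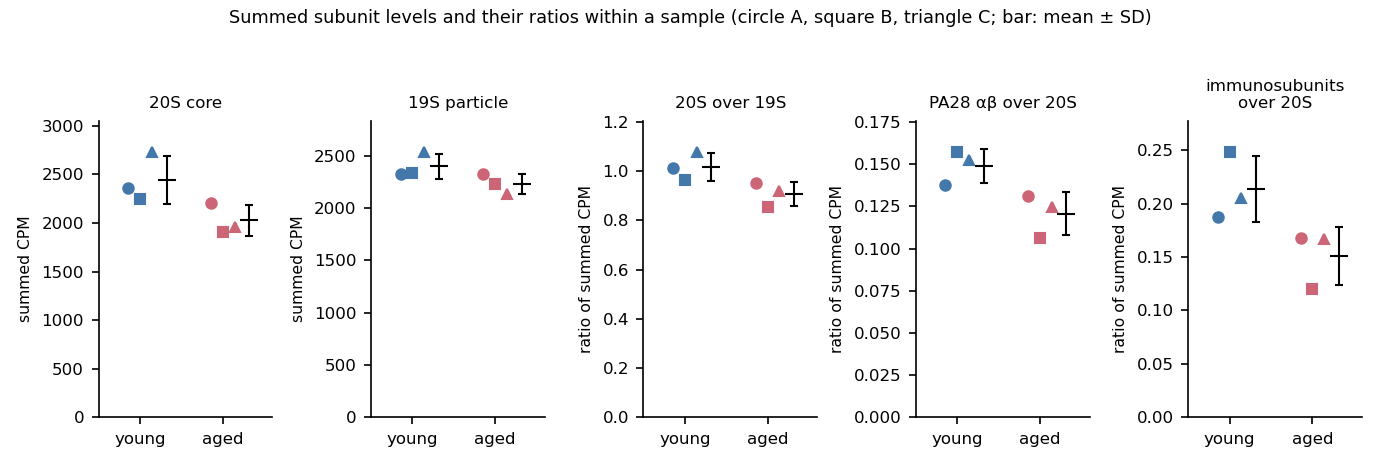
Summed CPM of the 20S core and of the 19S particle, and ratios of summed CPM within each sample, for young (blue) and aged (red) samples A (circles), B (squares) and C (triangles), with mean ± SD (n = 3). Aged samples lie below all young samples for both sums, narrowly so for the 19S particle (2323 CPM in aged and 2329 CPM in young sample A). They also do so for 20S over 19S, for PA28 over 20S and for the immunoproteasome subunits over 20S.

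Assembly factors held 2 of the 3 called members, which is 2 of the 7 factors (28.6%, against 7.97% of all genes called lower). Psmg1 (chr16:95979933-95990961, minus strand, mm10) encodes PAC1, which pairs with PAC2 to line up the alpha subunits. It was at 13.6, 13.6 and 17.5 CPM in the young samples and 7.85, 8.79 and 8.89 CPM in the aged samples, with no overlap. It fell by 0.81 on the log2 scale (SE 0.20, adjusted p = 0.0266). Psmg4 (chr13:34162964-34178174, plus strand, mm10) encodes PAC4, which forms the second chaperone pair with PAC3. It was at 7.30, 7.80 and 8.45 CPM in the young and 3.36, 4.52 and 3.83 CPM in the aged samples, again with no overlap, on 48 to 133 counts per sample. It fell by 50.2% (SE of the log2 fold change 0.24, adjusted p = 0.0225). Psmg4 was the only member past both the adjusted p and a 2-fold change in edgeR (1 of 47, or 2.13%, against 8.79% of all genes). These are the study's thresholds, which it applied to DESeq2. In DESeq2 the log2 fold change of Psmg4 was -0.996 (adjusted p = 0.00854), and 0 members passed both (against 9.15% of all genes). The fold change of Psmg4 thus lies at the limit.

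Their partners did not pass the test. Psmg2, which encodes PAC2, was at 16.6, 17.0 and 23.4 CPM in the young and 11.2, 16.2 and 11.9 CPM in the aged samples (log2 fold change -0.53, SE 0.22, adjusted p = 0.118), where aged sample B came close to the young ones. Psmg3, which encodes PAC3, overlapped between the ages (16.9 ± 3.39 and 15.5 ± 2.47 CPM, adjusted p = 0.708). Of the 3 chaperones of the 19S base, Psmd9 was at 35.2, 34.0 and 38.5 CPM in the young and 27.3, 25.5 and 22.2 CPM in the aged samples. Its groups were well apart, yet its adjusted p of 0.0501 fell just outside the threshold (log2 fold change -0.52, SE 0.16). Psmd10 was at a log2 fold change of -0.20 (adjusted p = 0.478). Psmd5 was at 0.05 (SE 0.29, adjusted p = 0.923), the highest value of the assembly factors, and its sign changed between fits.

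No call among the members held in every fit with a sample left out. When 1 sample at a time was left out (6 fits), Psmg4 passed in 2 (adjusted p 0.0240 to 0.1001), Psmg1 in 1 (0.0210 to 0.125) and Psme2b in 2 (0.0205 to 0.118), while the sign of each stayed negative. Of the 47 members, 0 were called without young sample B, young sample C or aged sample C, where 2.71%, 0.548% and 1.58% of all genes were called lower. Without aged sample B 1 was called (2.13%, against 4.98% of all genes), without aged sample A 2 (4.26%, against 4.26%) and without young sample A 4 (8.51%, against 9.29%). So calls became fewer over all genes too in 5 of these 6 fits.

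**Figure D4:**
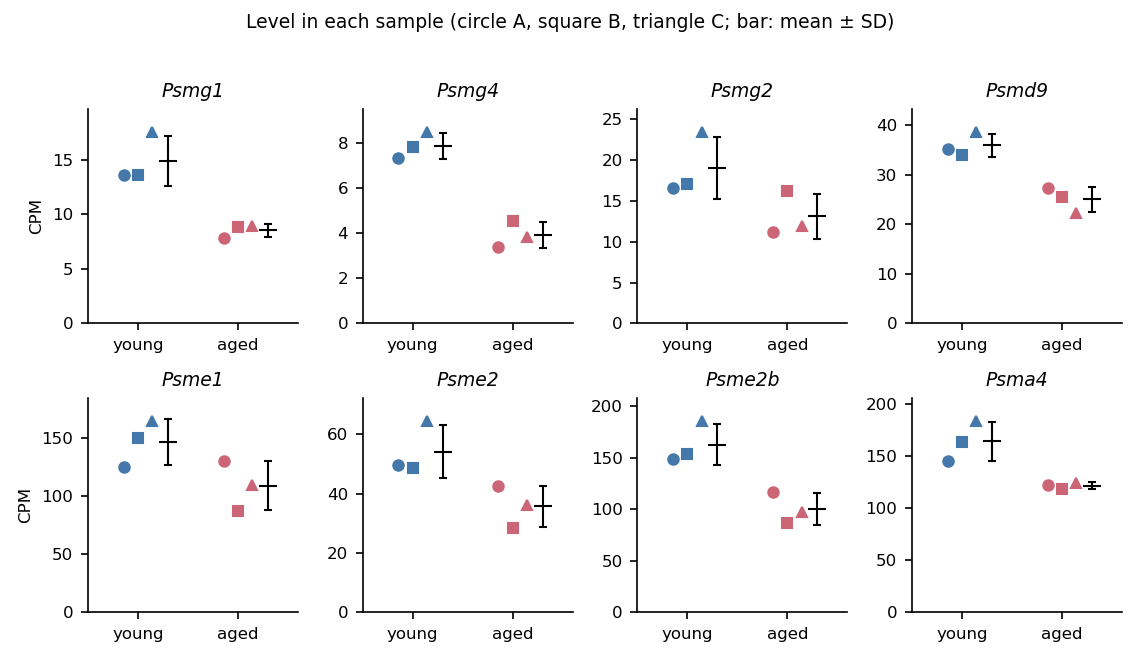
CPM in each young (blue) and aged (red) sample A (circle), B (square) and C (triangle), with mean ± SD (n = 3), for 4 assembly factors, the 3 PA28 genes and Psma4. Aged samples lie below all young ones in each panel but that of Psme1, where aged sample A (130.2 CPM) is above young sample A (125 CPM).

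The genes of PA28 were all on the negative side. Psme2b was at 149, 153 and 185 CPM in the young samples and 117, 87.0 and 97.5 CPM in the aged samples, and it fell by 0.69 on the log2 scale (SE 0.17, adjusted p = 0.0257). Psme2 was at 49.8, 48.5 and 64.4 CPM in the young and 42.5, 28.4 and 36.3 CPM in the aged samples (log2 fold change -0.60, SE 0.20, adjusted p = 0.0575). Given the near-identical sequences above, the 2 are best read as 1 quantity. Their sum was 217 ± 28.6 CPM in the young and 136 ± 22.1 CPM in the aged samples, and it fell by 0.67 (SE 0.18, adjusted p = 0.0317). Psme1, the gene of the partner subunit PA28 alpha, was at 147 ± 20.02 CPM in the young and 109 ± 21.3 CPM in the aged samples, with overlap (log2 fold change -0.43, SE 0.19, adjusted p = 0.140). Relative to the core, PA28 transcripts were at 0.138, 0.157 and 0.152 in young and 0.131, 0.106 and 0.124 in aged samples, without overlap. For the 4 PAC chaperones the same ratio overlapped, at 0.0217, 0.0245 and 0.0256 in young and 0.0160, 0.0248 and 0.0207 in aged samples.

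The other regulators of the barrel lay elsewhere. Psme3, which encodes the nuclear activator PA28 gamma, was at 76.9 ± 16.1 CPM in the young and 89.3 ± 10.7 CPM in the aged samples (log2 fold change 0.22, SE 0.19, adjusted p = 0.450). Psme4, which encodes the activator PA200, was low, with 5.19 ± 0.541 and 6.61 ± 1.67 CPM, and had the most positive value of all members, 0.35 (SE 0.26, adjusted p = 0.375). Psmf1, which encodes the inhibitor PI31, was at 23.0 ± 2.7 and 20.2 ± 2.83 CPM (adjusted p = 0.501). The groups overlapped for all 3.

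The 3 immunoproteasome subunits, outside the name rule, were all called lower (against 7.97% of all genes), although Psmb10 was close to the threshold. Psmb9 was at 54.4, 99.9 and 88.6 CPM in the young and 41.3, 27.1 and 44.2 CPM in the aged samples, a fall of 53.6% (log2 fold change -1.11, SE 0.26, adjusted p = 0.0197). Psmb8 fell by 0.71 (SE 0.20, adjusted p = 0.0371), from 309 ± 33.5 to 189 ± 43.6 CPM, and Psmb10 by 0.65 (SE 0.20, adjusted p = 0.0492), from 129 ± 11.5 to 81.8 ± 21.1 CPM. The call of Psmb10 was lost with DESeq2 size factors (adjusted p = 0.0535), with no filter on low counts (0.0617) and with the set letter as a block (0.0565) in edgeR. Without any 1 of young sample B, young sample C or aged sample C, 0 of the 3 passed. Aged sample B was lowest for each of them, and without it Psmb8 (adjusted p = 0.0992) and Psmb10 (0.140) did not pass in edgeR. Relative to the core, their summed CPM was at 0.213 ± 0.0311 in young and 0.151 ± 0.0272 in aged samples, with no overlap.

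The share that each inducible subunit held of the pair it forms with its constitutive counterpart was computed per length of coding sequence. Transcripts also hold untranslated bases, and their part differs between the genes of a pair. The transcript used has 1628 bases, 828 of them coding, for Psmb8, and 899 bases, 792 of them coding, for Psmb5. The size of each share therefore depends on the length used. For Psmb8 against Psmb5 the young samples had 59.3, 69.0 and 61.4% and the aged ones 55.8, 47.1 and 57.9%, a difference of -9.64 percentage points. For Psmb10 against Psmb7 the means were 56.3 ± 2.91% (young) and 48.4 ± 5.51% (aged). For Psmb9 against Psmb6 they were 27.3 ± 7.64% and 17.3 ± 3.00%. The groups did not overlap for Psmb8 and Psmb10, whose exact permutation p (two-sided, n = 3 per age) was 0.1, the smallest that 3 against 3 samples can give. For Psmb9, where aged sample C was above young sample A, the exact permutation p was 0.2 (n = 3 per age). Adjusted over the 3 shares these were 0.15, 0.15 and 0.2, so that the design could not show a difference at 0.05. The size of each difference also rested on single samples. Without aged sample B it went from -9.64 to -6.38 percentage points for Psmb8 and from -7.90 to -4.72 for Psmb10, and without young sample B it went from -9.95 to -6.01 for Psmb9.

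**Figure D5:**
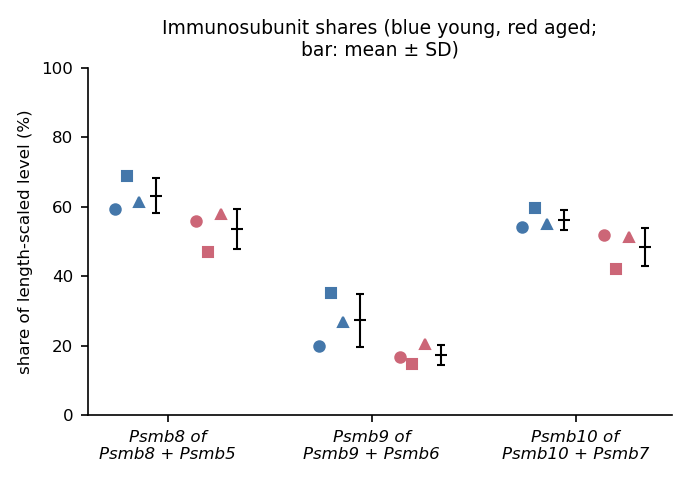
Share (%) that Psmb8, Psmb9 and Psmb10 each held of the length-scaled level of the pair with Psmb5, Psmb6 or Psmb7, in young (blue) and aged (red) samples A (circles), B (squares) and C (triangles), with mean ± SD (n = 3). Young means are 63.2, 27.3 and 56.3%, and aged means 53.6, 17.3 and 48.4%.

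Genes that work with the proteasome but lie outside the name rule were mostly on the positive side. The list of partners held 34 genes, among them those for shuttling receptors, deubiquitinases, ubiquitin ligases, ubiquitin, the p97 segregase and the regulators of proteasome transcription. The 19S subunits Adrm1 (log2 fold change 0.15, adjusted p = 0.557) and Sem1 (0.10, adjusted p = 0.728) were also in the list, and their groups overlapped. Of the 34 genes, 33 were listed and tested. In edgeR 1 was called higher (3.03%, against 9.73% of all genes) and 1 lower (3.03%, against 7.97%). A positive log2 fold change was found for 24 (72.7%, against 48.8%), and the median was 0.23. With library totals alone as the scale, 18 were positive and the median was 0.045, beside -0.20 over all genes. Nploc4, an adaptor of p97, was at 35.3, 19.4 and 22.9 CPM in the young and 47.3, 51.1 and 45.5 CPM in the aged samples. It rose by 0.89 (SE 0.22, adjusted p = 0.0251). Ufd1, the adaptor that pairs with Nploc4, was at 0.03 (SE 0.14, adjusted p = 0.888), and its groups overlapped. Uchl5, a deubiquitinase that binds the 19S base, was at 52.9, 50.7 and 62.5 CPM in the young and 28.9, 35.6 and 40.6 CPM in the aged samples, and it fell by 0.66 (SE 0.18, adjusted p = 0.0327). Both calls were lost in 4 or more of the 6 fits that left out a sample. The call of Nploc4 was also lost in edgeR with library totals alone as the scale (log2 fold change 0.70, adjusted p = 0.0669). DESeq2 called 5 partners higher (15.2%, against 11.7% of all genes) and 1 lower (3.03%, against 8.59%). In limma-voom 7 were called higher (21.2%, against 16.3%) and 3 lower (9.09%, against 14.4%).

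Other partners were on the positive side without passing as listed. Vcp, which encodes p97, was at 91.8 ± 14.2 CPM in the young and 131 ± 8.19 CPM in the aged samples (log2 fold change 0.51, adjusted p = 0.0564), and 62.9% of the joint counts lay in its copy Vcp-rs. With both summed it passed (log2 fold change 0.54, SE 0.17, adjusted p = 0.0498). Nfe2l1, which encodes the factor that drives proteasome genes when the proteasome is impaired, was at 29.6, 14.5 and 20.5 CPM in the young and 31.7, 38.6 and 29.9 CPM in the aged samples (log2 fold change 0.63, SE 0.25, adjusted p = 0.1002). Ngly1, whose product processes the Nfe2l1 protein, was at 0.55 (SE 0.18, adjusted p = 0.0568). Ddi2, whose product also processes that protein, was at 0.26 (SE 0.20, adjusted p = 0.383), and its groups overlapped. Nfe2l2, which encodes the related NRF2, was at 0.52 (SE 0.17, adjusted p = 0.0588). The aged samples of Vcp, Nfe2l1, Ngly1 and Nfe2l2 lay wholly above the young ones. This was so for 8 of the 33 partners (24.2%, against 19.2% of all genes), while 3 were wholly below (9.09%, against 19%). Pomp, the chaperone that closes the assembly of the core, lay with the core instead, at 161 ± 21.8 CPM in the young and 119 ± 5.06 CPM in the aged samples (log2 fold change -0.44, SE 0.16, adjusted p = 0.0816).

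Nfe2l1 and Nfe2l2 bind the antioxidant response element (ARE), and the start sites of the members were searched for its core. Windows of 300 bases (250 before to 50 after the start, RefSeq, build GRCm38.p6) were matched for 38 of the 48 members, which had 41 windows. The core TGACNNNGC, on either strand, was in 14.6% of these windows and in 12.4% of all 32851. CCAAT was in 31.7% against 37.4%, and GGCGGG, the core of the GC box, in 65.9% against 35.3%. The median GC content was 59% in windows of members against 52.7% in all. The 6 members with an ARE core were Psmb5, Psmb6, Psmc6, Psmd12, Psmd9 and Psme4. The cores of 3 of them are shown in capitals with up to 8 bases on each side.
Psmb5, chr14:54618026-54618050, minus strand: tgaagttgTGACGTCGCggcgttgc
Psmb6, chr11:70525340-70525364, plus strand: aaagagagTGACGGAGCgctttacg
Psmd9, chr5:123228151-123228175, plus strand: ctagccggTGACCCCGCccacttcc

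The windows of Psmg1 and Psmg4, the called members of the assembly factors, each held 1 GC box core, in capitals, and 0 ARE cores. A match describes letters only, and no occupancy was measured.
Psmg1, chr16:95990911-95991210, minus strand: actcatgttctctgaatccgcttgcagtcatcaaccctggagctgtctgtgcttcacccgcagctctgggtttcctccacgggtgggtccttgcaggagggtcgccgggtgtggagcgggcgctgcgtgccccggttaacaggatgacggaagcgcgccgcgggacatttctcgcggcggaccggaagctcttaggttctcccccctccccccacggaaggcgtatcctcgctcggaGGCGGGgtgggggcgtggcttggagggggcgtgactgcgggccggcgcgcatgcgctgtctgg
Psmg4, chr13:34162714-34163013, plus strand: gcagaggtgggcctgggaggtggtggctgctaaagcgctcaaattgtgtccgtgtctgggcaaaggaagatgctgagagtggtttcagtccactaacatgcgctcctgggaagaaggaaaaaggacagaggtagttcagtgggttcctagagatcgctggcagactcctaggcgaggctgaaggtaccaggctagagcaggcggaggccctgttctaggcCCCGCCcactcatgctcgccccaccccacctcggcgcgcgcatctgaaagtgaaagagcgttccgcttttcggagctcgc

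The samples held 15270103 to 17927483 counts. Macrophage markers were abundant, with 8 of 8 genes tested and summed levels of 27966 to 43048 CPM in the young and 20174 to 25536 CPM in the aged samples. Aged sample B stood apart in keratinocyte markers (9 of 10 listed, 1 tested), summed to 175 CPM against at most 2.24 CPM in any other sample. Genes of cycling cells (10 of 10 tested) summed to 141 to 240.0 CPM in the young and 110.1 to 129 CPM in the aged samples, and 7 of the 10 were called lower and 1 higher. Neutrophil markers (12 of 15 tested) summed to 651 to 1010 CPM in the young and 737 to 1364 CPM in the aged samples, fibroblast markers (6 of 8 tested) to 309 to 375 and 576 to 815 CPM, and erythroid markers (5 of 5 tested) to 153 to 490.1 and 41.8 to 152 CPM. Of those tested, 4 neutrophil, 1 fibroblast and 1 keratinocyte gene were called higher, 4 erythroid genes were called lower, and 1 macrophage gene was called in each direction. Of the listed markers, the keratinocyte genes Krt1 and Dsp and the neutrophil gene Elane were at 0 in all young samples. Their part in the levels of the proteasome genes was not tested.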

How the data were processed

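RNA from F4/80+ CD64+ cells of Day 3 wounds was amplified with SMART-Seq v4. Per the study's methods and the submitters' notes, the authors used STAR 2.7.3a to align reads to mm10 and Partek Flow with Ensembl 102 transcripts to quantify them. The authors deposited the expected counts per gene, without normalisation. The other deposited tables hold the authors' own DESeq2 comparison and analysis details and were not used.

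Expected counts were rounded to whole numbers, as the test needs them, although raw counts had been planned for. edgeR 4.0.16 (R 4.3.3) compared aged with young samples by its quasi-likelihood test, after TMM scaling and its default removal of low genes, with Benjamini-Hochberg adjustment over 11878 genes. CPM use TMM-scaled library sizes. Totals of 15270103 to 17927483 counts set the precision, and 1 count was 0.0553 to 0.0701 CPM. Calls were made at an adjusted p under 0.05, and also with a change over 2-fold, the study's criterion. Levels per kb use coding lengths from GENCODE, and copies were found with blastn 2.17.0 and by gene symbol, except Psma5-ps, which was matched to GENCODE by chromosome and start.

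The members and gene lists were chosen with earlier results of these data known. Genes were named by rule: members with an adjusted p under 0.05, the highest and lowest member of each role, the catalytic and immunoproteasome subunits, called partners and the highest and lowest partner. Psma3, Psma4, Psma5, Psmd9, Psmd14, Psme1, Psme2 and other genes were named after their values were seen. Alternatives were DESeq2 1.42.0, limma-voom (limma 3.58.1) with sample quality weights, DESeq2 size factors in edgeR, no filter, at least 10 counts in every sample, the set letter as a block, other thresholds and leaving out each sample. Total-count scaling and summing of near-identical copies, with the conditions that define a copy (at least 90% identity over at least 300 bases and 50% of the copy, at another locus), were chosen after seeing the data. Plots used Python 3.11.15, pandas 2.3.3 and matplotlib 3.10.9. Values of 1 partner gene are not reported here.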

Additional observations from a re-analysis of the deposited data

How the results depend on the processing

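Members called lower in aged samples numbered 3 (6.38%, against 7.97% of all genes). They numbered 5 in DESeq2 (10.6% against 8.59%), 12 in limma-voom (25.5% against 14.4%), 5 with at least 10 counts in every sample (10.6% against 9.18%), 10 with total-count scaling (21.3% against 13.1%), 0 at an adjusted p under 0.01 (against 0.766%) and 6 under 0.1 (12.8% against 13.3%), and 0 to 4 when 1 sample was left out (0 to 8.51%, against 0.548 to 9.29%). Members called higher were 0 under all 14 alternative fits and both other thresholds. The share of all genes called higher ran from 1.24% (without young sample C) to 16.3% (limma-voom) over these. The 1 member past 2-fold (2.13%, against 8.79% of all genes) became 0 with DESeq2 size factors (against 8.81%), in DESeq2 (against 9.15%) and at 0.01 (against 2.37%), 2 in limma-voom (4.26% against 12.3%), and 0 to 1 when 1 sample was left out (0 to 2.13%, against 1.74 to 12.4%). Partners called higher (1, or 3.03%, against 9.73% of all genes) became 5 in DESeq2 (15.2% against 11.7%), 7 in limma-voom (21.2% against 16.3%), 0 with total-count scaling (against 4.93%), 2 with copies summed (6.06% against 9.75%), 0 at 0.01 (against 1.81%), 5 at 0.1 (15.2% against 15%) and 0 to 3 without 1 sample (0 to 9.09%, against 1.24 to 13%). Partners called lower (1, or 3.03%, against 7.97%) became 3 in limma-voom (9.09% against 14.4%), 2 with total-count scaling (6.06% against 13.1%), 0 at 0.01 (against 0.766%), 2 at 0.1 (6.06% against 13.3%) and 0 to 1 without 1 sample (0 to 3.03%, against 0.548 to 9.29%). All genes called (2103) became 3646 in limma-voom, 306 at 0.01, 3364 at 0.1 and 218 to 2702 without 1 sample. Of those called, 45.03% were lower, and 72.6% with total-count scaling. Members wholly lower (18, or 38.3%, against 19% of all genes) became 34 with total-count scaling (72.3% against 28.6%) and 18 to 27 without 1 sample (38.3 to 57.4%, against 21.6 to 27.2%). Members wholly higher (0, against 19.2%) became 1 with copies summed (against 19.2%) and 0 to 2 without 1 sample (against 21.7 to 26.9%).

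The set letter as a replicate block left 3 members called lower and 2114 genes called, but Psmb10 lost its call (adjusted p = 0.0565). Same-letter samples had correlations of deviations of 0.181 (A), -0.0206 (B) and 0.114 (C), and samples of different letters had -0.215 to 0.138. The letters were not taken as pairs in the main fit, and so few values cannot settle whether they are pairs. Psmd5 (0.05) changed sign to -0.047 in limma-voom, -0.019 with the replicate block, -0.11 with total-count scaling, and -0.28 to 0.32 without 1 sample. Without 1 sample, Psmc2 (-0.05) lay between -0.10 and 0.011, Psmd1 (-0.02) between -0.050 and 0.055 and Psmg3 (-0.13) between -0.26 and 0.031. Ubb (0.15) was at -0.024 with total-count scaling. The cause of these changes was not tested. The exchange shares kept their sign under every alternative run for them. For the 44 genes carried through the alternatives, 532 values kept their direction and side of the threshold, 37 lost and 36 gained a call, and the 10 of Psmd5, Psmc2, Psmd1, Psmg3 and Ubb changed sign. The median standard error of a single member was 0.17.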

Other observations

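The remaining lists of cell markers are given as values. Dendritic cell markers (6 of 7 tested) summed to 21.1 to 62.0 CPM in the young and 36.4 to 105 CPM in the aged samples. Endothelial markers (3 of 5 tested) summed to 11.8 to 12.6 and 25.9 to 31.1 CPM, mast cell markers (5 of 5 tested) to 25.6 to 94.8 and 0.741 to 64.2 CPM, and T and NK cell markers (3 of 9 tested) to 4.76 to 6.63 and 3.21 to 4.41 CPM. Of the genes tested in these lists, 1 endothelial gene was called higher and 1 T or NK cell gene lower.

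Among the partners, Ubb, a polyubiquitin gene, was at 5701 ± 1039 CPM in the young and 6317 ± 655 CPM in the aged samples (log2 fold change 0.15, adjusted p = 0.638). Uba1, the ubiquitin-activating enzyme, was at 91.3 ± 1.82 and 124 ± 10.9 CPM (log2 fold change 0.44, adjusted p = 0.0660), and its groups did not overlap.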
